A study of Mus musculus with 22 samples.

Results

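The RNA of the mouse telencephalon at embryonic day 16.5 (E16.5) was compared with that at E13.5 in 4 polyA RNA libraries, 2 for each stage, out of the 22 samples of the series. All 4 libraries came from telencephalon of ICR mice, an outbred stock, and the labels name neither a treatment nor a genetic change in any of them. The remaining samples are chromatin libraries of the same tissue, namely ChIP-seq of the histone marks H3K9ac (acetylation), H3K9cr (crotonylation) and H3K18la (lactylation) with their inputs at both stages, and ATAC-seq, which maps open chromatin, at E13.5. The series describes its replicates as biological, while the number and sex of the embryos in a library are not given. The libraries were taken from the labels, the changed genes from a test of the counts, and the gene families from gene symbols, with the usual cell type markers passed over as examples.

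The telencephalon forms the cerebral cortex, the hippocampus and the basal ganglia. Between these stages progenitors that line the ventricles shift from making deep-layer neurons towards upper-layer neurons and glia, while neurons already born migrate, grow axons and begin to form contacts. Transcription factors set the identity and division of such cells, secreted and adhesion proteins carry signals between them, and channels, pumps and carriers give neurons and glia their electrical and metabolic properties.

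Estimated counts summed to 17059544 and 18485855 in the E13.5 libraries and to 17533164 and 18024657 in the E16.5 libraries. Log CPM (normalised counts, scaled to a common library size) correlated at 0.987 and 0.984 within the stages and at 0.943 to 0.946 between them. Marker lists were summed to describe the tissue in each library. All 6 markers of telencephalon identity were detected in every library, and all 6 fell, from a summed 2456 to 2563 CPM at E13.5 to 1668 to 1681 CPM at E16.5. In contrast, Hoxa2, Hoxa3, Hoxb2 and Hoxb3 of the hindbrain list had no counts in any library. Of 14 tested astrocyte lineage markers 10 rose and 3 fell (summed 1452 to 1589 CPM at E13.5 and 2000.2 to 2168 CPM at E16.5), and of 8 oligodendrocyte lineage markers 5 rose and 2 fell (summed 103 to 110 CPM and 178 to 196 CPM). Their part in the rises of glial genes named below was not tested. Summed markers of neighbouring tissue differed between libraries of a stage. Midbrain and hindbrain markers reached 3.96 and 10.3 CPM at E13.5 against 1.96 and 2.18 at E16.5. Meninges markers reached 16.9 and 39.04 CPM at E13.5 against 33.6 and 41.03 at E16.5. Choroid plexus markers reached 15.9 and 34.5 CPM at E13.5 against 7.04 and 28.2 at E16.5. Within the choroid plexus list Otx2 stood at 13.8 and 23.2 CPM at E13.5 and 4.25 and 4.58 CPM at E16.5. Ttr stood at 0.480 and 8.66 CPM at E13.5 and 0.615 and 19.3 CPM at E16.5. Of 7 tested erythroid markers 5 rose and 0 fell (summed 1478 to 1575 CPM at E13.5 and 2609 to 3534 CPM at E16.5). The part of these tissues in the genes named below was not tested. Xist, expressed in female cells, ranged from 1183 to 3920 CPM and the Y-linked Uty from 6.16 to 21.0 CPM, with the highest Xist and the lowest Uty both in E16.5 replicate 2, and neither gene was called between the stages. In bulk RNA, fewer cells of a type and less RNA per cell cannot be told apart, and this holds for every difference below.

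Of 16237 genes tested with edgeR's quasi-likelihood test, 4605 (28.4%) were higher and 4740 (29.2%) lower at E16.5 at a Benjamini-Hochberg adjusted p under 0.05, and upper-quartile scaling changed this split to 5349 higher and 3820 lower. The 2 directions differed in size. Changes of at least 2-fold numbered 2070 higher (12.7% of the tested genes) and 689 lower (4.24%), and the median log2 fold change of all tested genes was 0.01. These percentages are the background for the counts of each family below, and "2-fold" below always also means an adjusted p under 0.05. Genes named by the rule for examples had to show no overlap between the stages. A lack of overlap in them is therefore fixed by that choice and describes their values only.

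Gene families differed by kind. Among 84 families defined by symbol, 77 had at least 8 tested members, and in 61 of these the 2-fold rises outnumbered the 2-fold falls, in 11 the falls outnumbered the rises. Secreted factors had 123 of 292 tested members 2-fold higher and 1 lower (median log2 fold change 0.86). Adhesion proteins had 76 of 192 higher and 2 lower (median 0.76), and channels and transporters 169 of 473 higher and 7 lower (median 0.65). Signalling receptors and their partners had 119 of 307 higher and 10 lower (median 0.78). Transcription factors went the other way, with 40 of 783 tested members 2-fold higher, 61 lower and a median of -0.13. At any size 123 transcription factors rose and 286 fell, and with upper-quartile scaling 163 rose and 235 fell, 51 and 53 of them at least 2-fold, with a median of -0.04. These counts describe the families beside the background, and no test was made of a family.

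**Figure D1:**
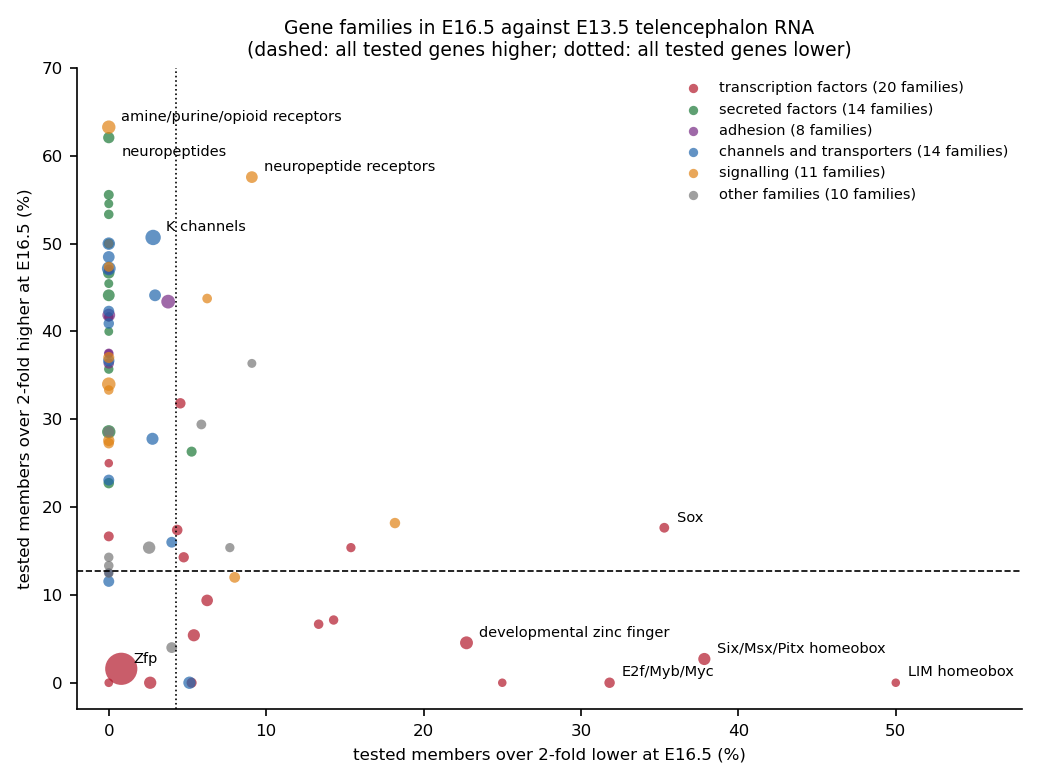
Share of each gene family that was at least 2-fold lower (horizontal axis, % of tested members) and higher (vertical axis, %) at E16.5, for the 77 families with at least 8 tested members; point area grows with family size, and the lines give the background of 4.24% lower and 12.7% higher. Most families of secreted, adhesion, channel and signalling genes lie at the left above the dashed line, and the families furthest to the right are transcription factors, with LIM homeobox factors at 50% lower.

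Most E2f, Myb and Myc factors fell. E2f proteins, with their Tfdp partners, control the genes of DNA replication, and B-Myb (Mybl2) those of mitosis. All 22 listed members were tested, 16 fell, 0 rose, 7 fell at least 2-fold, and the median log2 fold change was -0.76. The promoter windows of E2f2, E2f3 and E2f7 are shown because E2f factors are known to act on their own genes and each window holds a consensus E2F motif. They run from 250 bases before to 50 bases after the gene start in RefSeq's GRCm38.p6 annotation, on the plus strand at chr4:136172024-136172323 for E2f2 and at chr10:110745189-110745488 for E2f7, and on the minus strand at chr13:29986014-29986313 for E2f3. Capitals mark the motif, TTTGGCGC in E2f2 and GCGGGAAA, the reverse complement of TTTCCCGC, in the others.
E2f2: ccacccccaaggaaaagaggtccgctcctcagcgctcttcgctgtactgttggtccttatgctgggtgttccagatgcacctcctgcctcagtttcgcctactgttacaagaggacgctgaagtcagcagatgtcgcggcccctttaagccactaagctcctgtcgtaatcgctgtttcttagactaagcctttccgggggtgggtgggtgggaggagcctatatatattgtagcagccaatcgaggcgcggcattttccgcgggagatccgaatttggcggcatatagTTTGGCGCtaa
E2f3: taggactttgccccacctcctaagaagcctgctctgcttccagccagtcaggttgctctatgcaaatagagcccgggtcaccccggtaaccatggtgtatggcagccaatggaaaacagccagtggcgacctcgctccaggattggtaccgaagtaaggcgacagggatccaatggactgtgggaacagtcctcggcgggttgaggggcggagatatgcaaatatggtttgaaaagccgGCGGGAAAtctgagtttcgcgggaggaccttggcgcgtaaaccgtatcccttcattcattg
E2f7: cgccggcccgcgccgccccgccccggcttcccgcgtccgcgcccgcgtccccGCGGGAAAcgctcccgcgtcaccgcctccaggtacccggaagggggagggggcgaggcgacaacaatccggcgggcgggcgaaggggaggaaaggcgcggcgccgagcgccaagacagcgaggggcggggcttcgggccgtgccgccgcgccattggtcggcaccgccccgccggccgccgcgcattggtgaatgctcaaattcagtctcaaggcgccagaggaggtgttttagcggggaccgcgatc
At least 1 of the motifs TTTCCCGC and TTTGGCGC, searched on both strands with a window counted once where matches overlap, stood in 4 of the 18 promoter windows found for the family (E2f2, E2f3, E2f7 and Mycn; 22.2%), against 1.86% of 25535 promoter windows of this length. A match describes the letters of the window only. All 3 windows overlapped an H3K9ac peak in every library of both stages.

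The activator E2f1 stood at 42.3 and 43.7 CPM at E13.5 and 15.9 and 14.9 CPM at E16.5. E2f2 stood at 38.1 and 37.5 CPM at E13.5 and 12.4 and 13.7 CPM at E16.5, and the atypical repressor E2f8 at 40.4 and 38.98 CPM at E13.5 and 11.8 and 15.1 CPM at E16.5. In each, both E16.5 libraries lay well below both E13.5 libraries. The log2 fold changes were -1.48 ± 0.088 (SE; adjusted p = 5.0e-06) for E2f1, -1.53 ± 0.10 (SE; adjusted p = 6.4e-06) for E2f2 and -1.55 ± 0.12 (SE; adjusted p = 2.1e-05) for E2f8. Mybl2 fell by the same order, from 47.2 and 52.4 CPM to 16.7 and 18.3 CPM (log2 fold change -1.51 ± 0.092 SE, adjusted p = 5.8e-06). E2f3 (-1.18), E2f7 (-1.23) and the Myc-network repressor Mxd3 (-1.14) complete the members that fell at least 2-fold. Myc itself stood at 24.98 and 23.1 CPM at E13.5 and 23.02 and 27.5 CPM at E16.5, so its stages overlapped (log2 fold change 0.07 ± 0.11 SE, adjusted p = 0.614). E2f1, E2f3, E2f7, Mybl2, Mxd3 and Myc are named outside the rule for examples, after their values were seen. Of 12 markers of radial glia and dividing cells, 11 fell in the same libraries, from a summed 3002 to 3087 CPM to 1301 to 1439 CPM; their part in these falls was not tested.

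Homeobox factors pattern regions of the brain, and most of those that changed fell. LIM homeobox factors had 4 of 8 tested members at least 2-fold lower and none higher. Of 6 markers of Cajal-Retzius cells, a list that holds the LIM factor Lhx5, 5 fell in the same libraries, from a summed 515 to 533 CPM to 291 to 324 CPM, and their part was not tested. Lhx1 stood at 8.59 and 8.93 CPM at E13.5 and 1.45 and 1.91 CPM at E16.5 (log2 fold change -2.38 ± 0.23 SE, adjusted p = 6.3e-05), and its 2 stages did not overlap. Lhx9, expressed in early pallial neurons and the diencephalon, went from 20.7 and 23.7 CPM to 9.33 and 7.52 CPM (log2 fold change -1.40 ± 0.14 SE, adjusted p = 8.6e-05). The group of Msx, Pitx, Otx, Emx and related homeobox factors had 14 of 37 at least 2-fold lower and 1 higher, and 9 lower without E13.5 replicate 2, the library with the higher sum of midbrain and hindbrain markers. Six4 was lower in both E16.5 libraries (from 3.003 and 4.08 CPM to 1.17 and 0.654 CPM, log2 fold change -1.95 ± 0.38 SE, adjusted p = 0.0027). The teashirt factors Tshz3 (0.61 on the log2 scale) and Tshz2 (0.44) rose, both by less than 2-fold. In the TALE family the corepressors Tgif2 and Tgif1, which limit TGF-beta and retinoid responses, fell (log2 fold change -1.47 and -1.03) while Mkx rose from 0.180 and 0.165 CPM to 2.29 and 2.56 CPM (log2 fold change 3.76 ± 0.46 SE, adjusted p = 2.2e-04).

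Sox factors, which mark progenitors and also glia and vessels, split by member. Of 17 tested, 6 were at least 2-fold lower and 3 higher. Sox3, a partner of Sox2 in keeping neural progenitors undifferentiated, stood at 71.6 and 63.9 CPM at E13.5 and 17.4 and 11.6 CPM at E16.5. Sox21, which opposes those factors, stood at 109.8 and 98.9 CPM at E13.5 and 35.3 and 36.8 CPM at E16.5. Both fell without overlap (log2 fold change -2.23 ± 0.16 SE, adjusted p = 1.2e-05 for Sox3; log2 fold change -1.53 ± 0.069 SE, adjusted p = 1.6e-06 for Sox21). Sox17 and Sox18, factors of endothelial cells, rose (log2 fold change 1.38 ± 0.19 SE, adjusted p = 4.5e-04 for Sox17; log2 fold change 1.24 ± 0.20 SE, adjusted p = 0.0011 for Sox18). All 9 tested endothelial markers of a list of 10 rose too, from a summed 114.3 to 125.7 CPM at E13.5 to 386 to 402 CPM at E16.5, as did all 8 pericyte and mural cell markers, from 91.8 to 96.1 CPM to 275 to 298 CPM; Ly6c1 and Slco1a4 of the endothelial list had 0 counts in E13.5 replicate 1 only, none of the other markers was at 0 in a library, and their part in the vascular genes named here and below was not tested.

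The 2 groups of zinc finger factors differed in the size of their falls. Numbered Zfp genes, mostly KRAB repressors of transposable elements, had 115 of 378 tested members lower (30.4%, near the background of 29.2%) and 31 higher, but only 3 lower (5 without E16.5 replicate 2) and 6 higher reached 2-fold. Their median log2 fold change was -0.14, and 232 did not pass the test. Zfp516 (112 and 110.4 CPM to 51.8 and 44.6 CPM, log2 fold change -1.21 ± 0.074 SE, adjusted p = 6.1e-06) and Zfp367 (27.1 and 23.2 CPM to 10.6 and 10.8 CPM, log2 fold change -1.23 ± 0.12 SE, adjusted p = 6.4e-05) had the largest falls. Developmental zinc finger factors, a group with the Sall, Prdm, Gli, Zic, Gata and Ikzf genes, had 10 of 44 at least 2-fold lower and 2 higher. Sall4, a pluripotency factor, stood at 3.30 and 5.07 CPM at E13.5 and 0.391 and 0.436 CPM at E16.5 (log2 fold change -3.32 ± 0.39 SE, adjusted p = 1.9e-04). Prdm13, a factor of dorsal neural tube interneurons, fell too (log2 fold change -2.98 ± 0.73 SE, adjusted p = 0.0083). The members at least 2-fold higher were factors of blood lineages, Ikzf1 (log2 fold change 2.22 ± 0.18 SE, adjusted p = 2.4e-05) and Gata2 (log2 fold change 2.02 ± 0.37 SE, adjusted p = 0.0019), and all 12 microglia markers rose in the same libraries, from a summed 83.5 to 83.8 CPM to 173 to 178 CPM, with none at 0; their part was not tested.

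Smad, Tead and Runx factors, which carry TGF-beta and Hippo signals to DNA, had 11 of 15 tested members lower, 2 of them at least 2-fold, and 1 higher. Tead2, the DNA-binding partner of Yap1 in progenitors, stood at 238 and 238 CPM at E13.5 and 75.4 and 73.1 CPM at E16.5. Yap1 stood at 71.0 and 64.2 CPM at E13.5 and 24.6 and 21.1 CPM at E16.5. Both genes were lower in each E16.5 library than in either E13.5 library (log2 fold change -1.68 ± 0.052 SE, adjusted p = 5.2e-07 for Tead2; log2 fold change -1.56 ± 0.092 SE, adjusted p = 5.0e-06 for Yap1). Mef2 and Tcf factors were split, with 5 of 13 higher and 5 lower. Tcf7l1, the Tcf factor that acts mostly as a repressor of Wnt targets, went from 44.1 and 39.6 CPM to 9.22 and 9.05 CPM (log2 fold change -2.195 ± 0.10 SE, adjusted p = 1.8e-06). Foxm1, which drives genes of mitosis, fell (log2 fold change -1.36 ± 0.069 SE, adjusted p = 2.4e-06). Among nuclear receptors Nr2e1 (Tlx), needed to keep neural stem cells dividing, fell from 145 and 144 CPM to 44.3 and 38.9 CPM (log2 fold change -1.79 ± 0.068 SE, adjusted p = 8.9e-07).

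Other transcription factors rose. The retinoid receptor Rxrg stood at 4.26 and 3.86 CPM at E13.5 and 28.1 and 28.1 CPM at E16.5 (log2 fold change 2.79 ± 0.12 SE, adjusted p = 1.4e-06), and the mineralocorticoid receptor gene Nr3c2 at 0.360 and 0.496 CPM at E13.5 and 3.85 and 4.52 CPM at E16.5 (log2 fold change 3.26 ± 0.36 SE, adjusted p = 1.2e-04). Both pairs of stages were far apart. Fosl2, of the AP-1 family, stood at 6.01 and 4.30 CPM at E13.5 and 24.7 and 26.5 CPM at E16.5 (log2 fold change 2.32 ± 0.16 SE, adjusted p = 1.1e-05). Clock and PAS factors had 7 of 22 tested members at least 2-fold higher (4 without E16.5 replicate 1) and 1 lower, with Npas2, a partner of Bmal1 in the circadian clock (log2 fold change 2.69 ± 0.36 SE, adjusted p = 3.4e-04), and Npas1, a factor of forebrain inhibitory neurons (log2 fold change 2.11 ± 0.20 SE, adjusted p = 5.7e-05), as the largest rises. Etv4, a target of FGF signalling, went from 4.32 and 4.36 CPM to 13.9 and 11.9 CPM (log2 fold change 1.57 ± 0.16 SE, adjusted p = 9.7e-05). Tbx3 rose from 0.420 and 1.05 CPM to 3.80 and 3.76 CPM (log2 fold change 2.34 ± 0.41 SE, adjusted p = 0.0016).

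**Figure D2:**
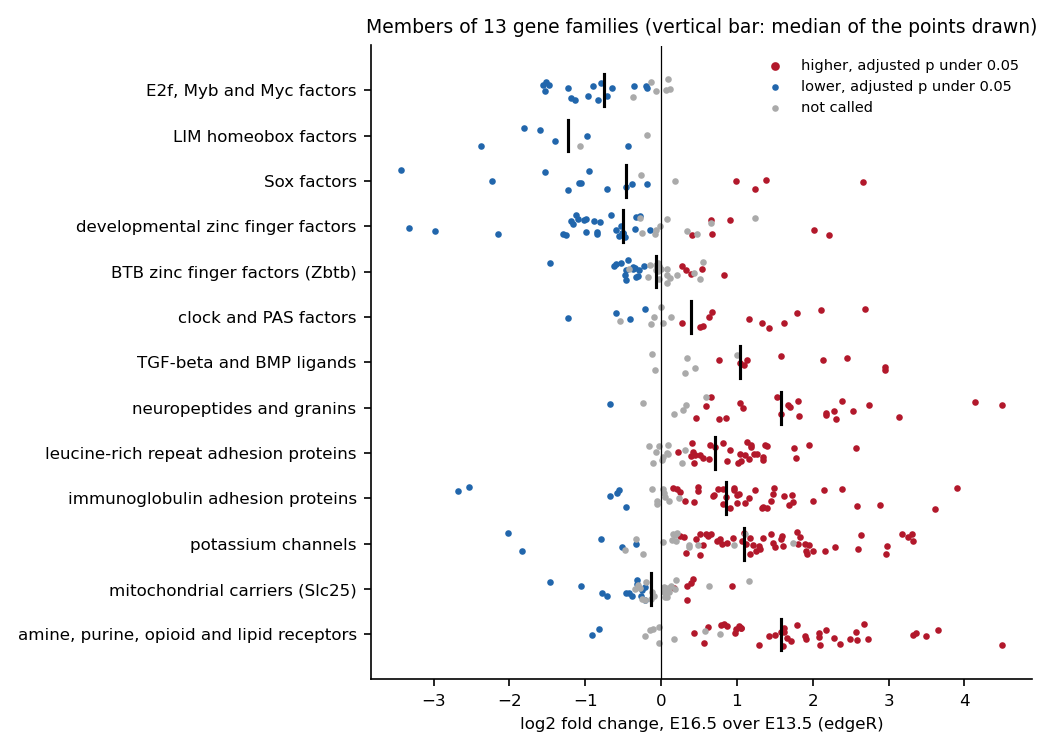
Log2 fold change (E16.5 over E13.5, horizontal axis) of 448 tested members of 13 families (rows); each point is a gene, red and blue points passed an adjusted p under 0.05, grey points did not, and 2 genes with no counts at a stage are not drawn. The medians of E2f, LIM homeobox, Sox and developmental zinc finger factors lie below 0, and those of the ligand, adhesion, channel and receptor families above 0.

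Neuropeptide genes had the largest share of 2-fold rises among the secreted families. Of 29 tested neuropeptide and granin genes, which encode the peptide cargo of secretory vesicles, 23 rose, 18 at least 2-fold, and 1 fell (median 1.59). Penk, the enkephalin precursor of striatal neurons, stood at 1.501 and 1.103 CPM at E13.5 and 10.8 and 12.2 CPM at E16.5 (log2 fold change 3.14 ± 0.23 SE, adjusted p = 1.4e-05). Nxph4, which encodes a neurexin ligand, was the member that fell, from 31.3 and 24.4 CPM to 17.2 and 17.7 CPM (log2 fold change -0.68 ± 0.13 SE, adjusted p = 0.0027). TGF-beta and BMP ligands had 8 of 15 tested members at least 2-fold higher (5 without E13.5 replicate 2) and 0 that fell. Gdf10 stood at 2.52 and 3.53 CPM at E13.5 and 13.46 and 13.2 CPM at E16.5 (log2 fold change 2.13 ± 0.19 SE, adjusted p = 4.5e-05) and Bmp6 at 0.781 and 0.496 CPM at E13.5 and 3.41 and 3.60 CPM at E16.5 (log2 fold change 2.45 ± 0.35 SE, adjusted p = 5.6e-04). Their stages did not overlap. Grem1, an antagonist that binds BMPs outside the cell, rose beside them and went from 1.38 and 1.05 CPM to 5.59 and 5.67 CPM (log2 fold change 2.21 ± 0.27 SE, adjusted p = 2.3e-04).

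Growth factor systems changed in ligand and receptor genes. Egfr, the receptor that makes late progenitors responsive to EGF ligands, stood at 3.48 and 2.54 CPM at E13.5 and 31.2 and 29.5 CPM at E16.5 (log2 fold change 3.34 ± 0.16 SE, adjusted p = 1.8e-06). Its ligand gene Tgfa stood at 8.95 and 8.60 CPM at E13.5 and 37.99 and 37.9 CPM at E16.5 (log2 fold change 2.11 ± 0.10 SE, adjusted p = 1.7e-06). In the family of EGF ligands and receptors 6 of 11 rose at least 2-fold. Igf1 went from 0.541 and 1.05 CPM to 4.53 and 4.14 CPM (log2 fold change 2.43 ± 0.36 SE, adjusted p = 6.5e-04), and Igfbp3, which binds the IGF peptides, from 5.53 and 5.57 CPM to 24.6 and 25.1 CPM (log2 fold change 2.16 ± 0.12 SE, adjusted p = 3.3e-06). Among neurotrophic factors and their receptors 9 of 18 rose at least 2-fold, including Gfra2, the neurturin receptor (log2 fold change 1.97 ± 0.24 SE, adjusted p = 2.2e-04), while the heparin-binding factor midkine, Mdk, fell from 153 and 157 CPM to 92.3 and 97.4 CPM (log2 fold change -0.71 ± 0.054 SE, adjusted p = 1.7e-05). Il34 and Cx3cl1 encode ligands of microglial receptors. Both Il34 (log2 fold change 3.33 ± 0.47 SE, adjusted p = 4.9e-04) and Cx3cl1 (log2 fold change 1.46 ± 0.12 SE, adjusted p = 3.0e-05) rose. The vascular ligands Pdgfb and Apln rose as well (1.64 and 1.59 on the log2 scale), beside the endothelial markers given above.

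Most matrix genes that changed rose. Proteoglycans, tenascins and hyaluronan binding proteins had 14 of 30 tested members at least 2-fold higher and 0 lower. Tnr, the tenascin of perineuronal matrix and oligodendrocytes, stood at 18.9 and 17.5 CPM at E13.5 and 85.8 and 85.7 CPM at E16.5 (log2 fold change 2.24 ± 0.067 SE, adjusted p = 5.2e-07). The glypican Gpc4 (log2 fold change -0.99 ± 0.072 SE, adjusted p = 1.3e-05) and the syndecan Sdc1 (log2 fold change -0.50 ± 0.068 SE, adjusted p = 4.3e-04), both cell surface carriers of heparan sulfate, fell. Matricellular and fibre proteins had 15 of 34 at least 2-fold higher, led by the elastic fibre protein Fbln5 (0.180 and 0.165 CPM to 3.13 and 3.43 CPM, log2 fold change 4.19 ± 0.42 SE, adjusted p = 7.7e-05) and matrilin 4, Matn4 (0.541 and 0.441 CPM to 5.64 and 5.61 CPM, log2 fold change 3.51 ± 0.31 SE, adjusted p = 3.7e-05). Ccn1, a target of Yap1, fell from 28.1 and 28.9 CPM to 16.3 and 15.04 CPM (log2 fold change -0.87 ± 0.10 SE, adjusted p = 1.5e-04). Laminins had 5 of 11 at least 2-fold higher, including Lama3 (log2 fold change 2.34 ± 0.27 SE, adjusted p = 1.5e-04). Metalloproteinases and their inhibitors had 14 of 49 at least 2-fold higher. The procollagen protease Adamts2 stood at 1.02 and 0.221 CPM at E13.5 and 18.6 and 17.9 CPM at E16.5 (log2 fold change 4.90 ± 0.36 SE, adjusted p = 1.6e-05), one of the largest changes among all family members named. Serpine2, a secreted thrombin inhibitor, went from 7.57 and 8.44 CPM to 45.3 and 42.2 CPM (log2 fold change 2.45 ± 0.10 SE, adjusted p = 1.3e-06).

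Of the 192 tested adhesion genes 130 rose and 18 fell. The proteins hold cells to one another and to the matrix, and many organise synapses. Leucine-rich repeat adhesion proteins had 32 of 43 tested members higher, 18 at least 2-fold, and 0 lower. Lingo1, a coreceptor that limits myelination and axon growth, stood at 29.2 and 31.7 CPM at E13.5 and 115 and 119.7 CPM at E16.5 (log2 fold change 1.95 ± 0.063 SE, adjusted p = 5.2e-07). Teneurins and latrophilins, which bind each other across synapses, had 7 of 8 higher, and Tenm2 stood at 64.3 and 63.2 CPM at E13.5 and 207 and 216 CPM at E16.5 (log2 fold change 1.73 ± 0.054 SE, adjusted p = 5.2e-07). In both genes the libraries of a stage lay close together.

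Immunoglobulin adhesion proteins included some of the genes that fell. Of 53 tested, 39 rose, 23 at least 2-fold, and 6 fell, 2 at least 2-fold (1 without E13.5 replicate 1 or E16.5 replicate 2). Opcml, of the GPI-anchored IgLON group, stood at 12.9 and 9.21 CPM at E13.5 and 81.1 and 82.0 CPM at E16.5 (log2 fold change 2.89 ± 0.13 SE, adjusted p = 1.3e-06). Icam5 (telencephalin), an adhesion protein of telencephalic dendrites, stood at 0.300 and 0.165 CPM at E13.5 and 3.35 and 3.71 CPM at E16.5 (log2 fold change 3.90 ± 0.42 SE, adjusted p = 1.1e-04). Kirrel2 stood at 1.92 and 1.65 CPM at E13.5 and 0.223 and 0.381 CPM at E16.5 and so went the other way (log2 fold change -2.53 ± 0.46 SE, adjusted p = 0.0020). The junctional protein gene Jam3 fell from 53.3 and 52.3 CPM to 35.1 and 30.8 CPM (log2 fold change -0.68 ± 0.079 SE, adjusted p = 1.7e-04).

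Among cadherins, 12 of 16 tested classical cadherins and 10 of 12 non-clustered protocadherins rose. Cdh9, which acts in hippocampal synapses, stood at 0.420 and 0.662 CPM at E13.5 and 4.25 and 4.58 CPM at E16.5 (log2 fold change 3.002 ± 0.35 SE, adjusted p = 1.6e-04). Pcdh20 went from 2.34 and 2.37 CPM to 8.99 and 7.63 CPM (log2 fold change 1.81 ± 0.21 SE, adjusted p = 1.8e-04), and Pcdh19 fell from 103 and 110.1 CPM to 77.2 and 72.4 CPM (log2 fold change -0.51 ± 0.059 SE, adjusted p = 1.6e-04). The large cadherins of planar polarity were divided. Celsr3, needed for axon tracts, rose from 413 and 436 CPM to 567 and 579 CPM (log2 fold change 0.43 ± 0.042 SE, adjusted p = 6.1e-05), Celsr1, a gene of neuroepithelium, fell from 353 and 298 CPM to 213 and 203 CPM (log2 fold change -0.64 ± 0.078 SE, adjusted p = 2.1e-04), and Dchs2 rose from 2.10 and 1.76 CPM to 12.2 and 16.7 CPM (log2 fold change 2.90 ± 0.23 SE, adjusted p = 2.0e-05). Claudins and tight junction proteins had 8 of 17 at least 2-fold higher. Occludin, Ocln, a component of the blood-brain barrier, stood at 0.961 and 0.937 CPM at E13.5 and 9.05 and 7.19 CPM at E16.5 (log2 fold change 3.09 ± 0.26 SE, adjusted p = 3.3e-05), beside the endothelial markers given above. The gap junction gene Gjc1 (connexin 45) fell from 89.0 and 102 CPM to 64.1 and 59.4 CPM (log2 fold change -0.63 ± 0.078 SE, adjusted p = 2.3e-04), while Gjd2 (connexin 36), the connexin of neuronal gap junctions, rose from 4.50 and 5.07 CPM to 13.1 and 10.6 CPM (log2 fold change 1.30 ± 0.18 SE, adjusted p = 4.3e-04).

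**Figure D3:**
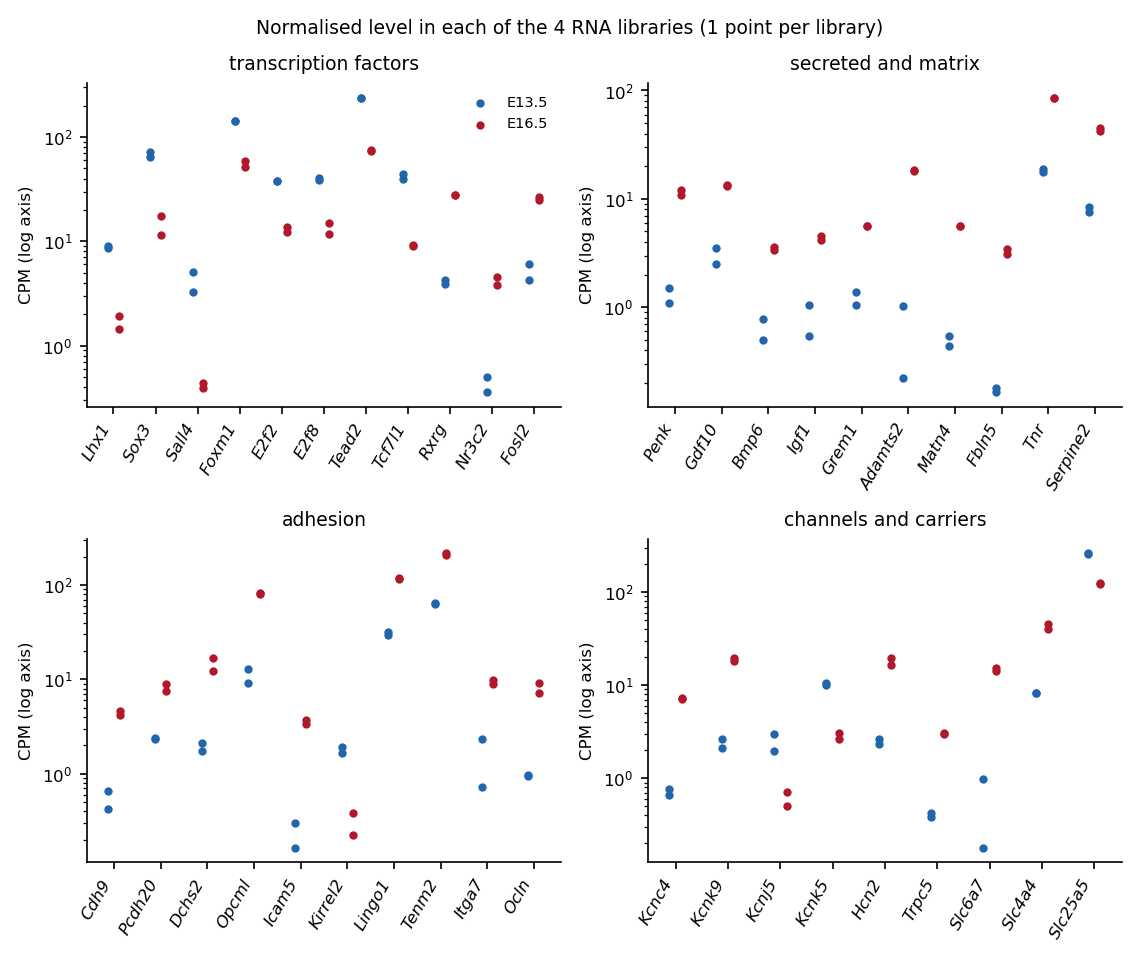
CPM (log axis) in each of the 4 RNA libraries for 40 genes, in 4 panels; each point is a library, blue for E13.5 and red for E16.5. In every gene drawn both libraries of one stage lie above both of the other, as the rule for choosing these genes required.

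Most ion channel genes that changed rose. Potassium channels set the resting potential and end action potentials. Of 71 tested potassium channel genes 51 rose, 36 at least 2-fold (median 1.103), 5 fell and 2 fell at least 2-fold (4 without E16.5 replicate 1). Kcnc4, a fast delayed rectifier of the Kv3 group, stood at 0.661 and 0.772 CPM at E13.5 and 7.32 and 7.19 CPM at E16.5 (log2 fold change 3.32 ± 0.27 SE, adjusted p = 2.4e-05). Kcnk9, a leak channel, stood at 2.10 and 2.65 CPM at E13.5 and 18.2 and 19.7 CPM at E16.5 (log2 fold change 2.99 ± 0.17 SE, adjusted p = 4.0e-06). The members that fell at least 2-fold were an inward rectifier and a leak channel: Kcnj5 went from 3.003 and 1.99 CPM to 0.503 and 0.708 CPM (log2 fold change -2.02 ± 0.41 SE, adjusted p = 0.0034) and Kcnk5 from 10.5 and 10.04 CPM to 3.07 and 2.67 CPM (log2 fold change -1.84 ± 0.19 SE, adjusted p = 8.1e-05). Sodium and calcium channels had 15 of 34 at least 2-fold higher. Cacng5, an auxiliary subunit of AMPA receptors, stood at 2.16 and 2.26 CPM at E13.5 and 11.7 and 12.4 CPM at E16.5 (log2 fold change 2.44 ± 0.18 SE, adjusted p = 1.5e-05).

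The Trp, Piezo, Asic, Hcn, P2x and store-operated channels had 25 of 53 tested members at least 2-fold higher and 0 lower. Hcn2, a pacemaker channel, stood at 2.64 and 2.32 CPM at E13.5 and 16.4 and 19.5 CPM at E16.5 (log2 fold change 2.85 ± 0.17 SE, adjusted p = 5.9e-06), and Trpc5, a cation channel of growth cones, at 0.420 and 0.386 CPM at E13.5 and 3.07 and 2.997 CPM at E16.5 (log2 fold change 2.89 ± 0.37 SE, adjusted p = 2.7e-04). Of 26 tested chloride and anion channels 16 rose and 4 fell, with 3 at least 2-fold higher, a share near the background. In this family Ano3 rose (log2 fold change 1.70 ± 0.27 SE, adjusted p = 9.5e-04) and Ano1, the calcium-activated chloride channel, fell from 30.1 and 31.6 CPM to 14.2 and 17.9 CPM (log2 fold change -0.94 ± 0.12 SE, adjusted p = 3.1e-04).

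Most pump and carrier genes of the plasma membrane that changed also rose. P-type ATPases and Fxyd proteins, which include the sodium and calcium pumps and the lipid flippases, had 28 of 33 tested members higher and 16 at least 2-fold. Atp13a5 stood at 0.300 and 0.551 CPM at E13.5 and 4.41 and 9.59 CPM at E16.5 (log2 fold change 4.004 ± 0.50 SE, adjusted p = 2.5e-04), with its E16.5 libraries far apart and both above E13.5. Amino acid and transmitter carriers had 20 of 40 at least 2-fold higher, and 1 fell, by less than 2-fold. The brain proline carrier Slc6a7 stood at 0.180 and 0.993 CPM at E13.5 and 15.1 and 14.1 CPM at E16.5 (log2 fold change 4.59 ± 0.40 SE, adjusted p = 3.7e-05). Slc1a5, the neutral amino acid exchanger of dividing cells, was the member that fell, from 16.04 and 17.04 CPM to 9.67 and 9.86 CPM (log2 fold change -0.76 ± 0.12 SE, adjusted p = 9.0e-04). Slc4a4, a sodium bicarbonate cotransporter of astrocytes, stood at 8.23 and 8.16 CPM at E13.5 and 45.9 and 40.1 CPM at E16.5 (log2 fold change 2.39 ± 0.11 SE, adjusted p = 1.7e-06). The zinc carriers and relatives had 6 of 26 at least 2-fold higher, and the manganese exporter gene Slc30a10 fell from 95.1 and 88.6 CPM to 58.2 and 57.3 CPM (log2 fold change -0.67 ± 0.058 SE, adjusted p = 3.6e-05).

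Carriers of the blood-brain barrier were among the largest rises of the organic ion and ABC families. The prostaglandin carrier Slco2a1 went from 0.541 and 0.827 CPM to 8.32 and 9.15 CPM (log2 fold change 3.65 ± 0.28 SE, adjusted p = 1.9e-05). The drug efflux pump Abcb1a stood at 1.92 and 2.43 CPM at E13.5 and 14.6 and 13.4 CPM at E16.5 (log2 fold change 2.68 ± 0.19 SE, adjusted p = 1.1e-05). The endothelial markers above moved in the same direction. Abcd2, a carrier of very long-chain fatty acids into peroxisomes, fell from 68.2 and 57.9 CPM to 26.1 and 22.1 CPM (log2 fold change -1.39 ± 0.11 SE, adjusted p = 1.9e-05).

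Mitochondrial carriers of the Slc25 family move metabolites across the inner membrane. Of 39 tested, 6 rose, 13 fell and 20 did not pass the test (median -0.14). With 0 members 2-fold higher and 2 lower, which became 1 and 1 with upper-quartile scaling, the family lay below the background of rises. Slc25a5, an ADP/ATP translocase of dividing cells, stood at 256 and 261 CPM at E13.5 and 127 and 121 CPM at E16.5 (log2 fold change -1.06 ± 0.052 SE, adjusted p = 2.1e-06). Slc25a13, the liver-type aspartate/glutamate carrier, went from 17.4 and 18.6 CPM to 6.09 and 6.98 CPM (log2 fold change -1.46 ± 0.14 SE, adjusted p = 5.1e-05).

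Receptors for amines, purines, opioids and lipids had the highest share of 2-fold rises among the families with at least 8 tested members, 31 of 49 (63.3%), and no 2-fold fall. The serotonin receptor Htr2c stood at 0.240 and 0.276 CPM at E13.5 and 2.79 and 3.87 CPM at E16.5 (log2 fold change 3.65 ± 0.42 SE, adjusted p = 1.7e-04), and Htr1b at 0.480 and 0.607 CPM at E13.5 and 5.92 and 6.48 CPM at E16.5 (log2 fold change 3.49 ± 0.30 SE, adjusted p = 3.3e-05). Both were near the detection limit at E13.5 and present in both E16.5 libraries. The lysophosphatidic acid receptors Lpar1 (log2 fold change -0.91 ± 0.11 SE, adjusted p = 2.2e-04) and Lpar6 (log2 fold change -0.81 ± 0.18 SE, adjusted p = 0.0060), of which Lpar1 is known from ventricular zone progenitors, were the members that fell.

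Neuropeptide receptors moved in both directions. Of 33 tested, 19 were at least 2-fold higher and 3 lower. Npy1r, a neuropeptide Y receptor, stood at 0.901 and 1.43 CPM at E13.5 and 13.7 and 14.9 CPM at E16.5 (log2 fold change 3.60 ± 0.23 SE, adjusted p = 7.2e-06). Ramp1, the subunit that makes a CGRP receptor, stood at 0.120 and 0.165 CPM at E13.5 and 2.79 and 2.997 CPM at E16.5 (log2 fold change 4.27 ± 0.45 SE, adjusted p = 1.0e-04). Cckar, the cholecystokinin A receptor, stood at 4.26 and 2.92 CPM at E13.5 and 0.112 and 0.272 CPM at E16.5 (log2 fold change -4.17 ± 0.49 SE, adjusted p = 1.8e-04), the largest fall in the signalling families named here. Sstr3, the somatostatin receptor of neuronal cilia, went from 10.03 and 9.15 CPM to 3.69 and 2.67 CPM (log2 fold change -1.59 ± 0.21 SE, adjusted p = 3.7e-04). Of 50 tested Gpr receptors, 17 were at least 2-fold higher, including Gpr17, a receptor of oligodendrocyte precursors (log2 fold change 3.28 ± 0.22 SE, adjusted p = 9.2e-06), and Gprc5b, a gene of radial glia, fell from 72.4 and 67.9 CPM to 49.6 and 44.8 CPM (log2 fold change -0.57 ± 0.070 SE, adjusted p = 2.3e-04).

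Downstream of these receptors the G protein subunits were balanced, with 9 of 25 higher and 9 lower. Gnal, which encodes the olfactory and striatal stimulatory alpha subunit, stood at 27.4 and 24.4 CPM at E13.5 and 133 and 134 CPM at E16.5 (log2 fold change 2.37 ± 0.067 SE, adjusted p = 5.2e-07). Gng5, the gamma subunit of progenitors, fell from 34.1 and 33.1 CPM to 17.3 and 16.2 CPM (log2 fold change -1.01 ± 0.092 SE, adjusted p = 4.5e-05). Adcy1, the calcium-stimulated adenylyl cyclase of cortical neurons, stood at 33.3 and 32.3 CPM at E13.5 and 200.1 and 223 CPM at E16.5 (log2 fold change 2.69 ± 0.070 SE, adjusted p = 4.2e-07), and its family with the phosphodiesterases had 10 of 27 at least 2-fold higher. Rgs proteins, which shorten G protein signals, had 9 members higher and 5 lower of 16, with Rgs11 (log2 fold change 3.91 ± 0.35 SE, adjusted p = 4.2e-05) and Rgs16 (log2 fold change -1.16 ± 0.094 SE, adjusted p = 2.5e-05) at the ends. Receptor tyrosine phosphatases had 16 of 19 higher, and Ptprt stood at 30.6 and 31.0 CPM at E13.5 and 121 and 134 CPM at E16.5 (log2 fold change 2.05 ± 0.067 SE, adjusted p = 5.2e-07). The dual specificity phosphatases (Dusp), some of which switch off MAP kinases, were divided. Dusp15 rose (log2 fold change 1.87 ± 0.16 SE, adjusted p = 3.2e-05), and Dusp14 (log2 fold change -1.40 ± 0.17 SE, adjusted p = 1.9e-04) and Dusp10 (log2 fold change -1.34 ± 0.16 SE, adjusted p = 2.0e-04) fell.

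Smaller families gave single changes of note. Of 6 tested 14-3-3 genes, which encode abundant phosphoprotein adaptors, 4 fell, none 2-fold, and Ywhaq stood at 491 and 509.6 CPM at E13.5 and 379 and 373 CPM at E16.5 (log2 fold change -0.41 ± 0.040 SE, adjusted p = 6.7e-05). Carbonic anhydrases held the rise of Car10, which encodes an inactive secreted relative (log2 fold change 2.32 ± 0.22 SE, adjusted p = 5.3e-05), and the fall of the membrane enzyme Car14 from 8.95 and 8.71 CPM to 1.90 and 1.91 CPM (log2 fold change -2.21 ± 0.21 SE, adjusted p = 5.3e-05). The retinoic acid-degrading enzyme Cyp26b1 stood at 6.13 and 5.35 CPM at E13.5 and 22.1 and 24.5 CPM at E16.5 (log2 fold change 2.02 ± 0.13 SE, adjusted p = 8.4e-06). Apoe, the lipid carrier of glia, went from 33.7 and 31.8 CPM to 184 and 170.1 CPM (log2 fold change 2.44 ± 0.064 SE, adjusted p = 4.2e-07). Snhg11, a neuronal non-coding host RNA, stood at 39.2 and 51.9 CPM at E13.5 and 315 and 339 CPM at E16.5 (log2 fold change 2.84 ± 0.12 SE, adjusted p = 1.2e-06). Trim59 fell from 76.7 and 71.0 CPM to 32.5 and 32.3 CPM (log2 fold change -1.19 ± 0.066 SE, adjusted p = 3.6e-06).

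Outside the families, the largest rises with a mean of at least 5 CPM were in Ddn (dendrin, a dendrite protein), Gda (the guanine deaminase cypin) and Jakmip3. Ddn stood at 0.240 and 0.331 CPM at E13.5 and 10.8 and 10.2 CPM at E16.5 (log2 fold change 5.16 ± 0.28 SE, adjusted p = 3.5e-06) and Gda at 0.360 and 0.441 CPM at E13.5 and 11.4 and 11.99 CPM at E16.5 (log2 fold change 4.84 ± 0.25 SE, adjusted p = 2.8e-06). Hs3st2, a heparan sulfate sulfotransferase of brain (log2 fold change 3.56 ± 0.23 SE, adjusted p = 8.0e-06), Matk, a kinase that inhibits Src (log2 fold change 3.53 ± 0.13 SE, adjusted p = 8.8e-07), and Met, the hepatocyte growth factor receptor (log2 fold change 3.52 ± 0.21 SE, adjusted p = 5.2e-06), followed. Falls of this kind included the retinoic acid binding protein gene Crabp2 (11.8 and 15.7 CPM at E13.5 and 1.17 and 1.53 CPM at E16.5, log2 fold change -3.34 ± 0.24 SE, adjusted p = 1.3e-05), the progenitor factor Dmrta1 (9.55 and 10.3 CPM at E13.5 and 1.45 and 1.14 CPM at E16.5, log2 fold change -2.93 ± 0.23 SE, adjusted p = 2.0e-05) and Fgf15, the mouse counterpart of FGF19 (24.9 and 31.9 CPM at E13.5 and 4.08 and 6.65 CPM at E16.5, log2 fold change -2.402 ± 0.22 SE, adjusted p = 4.3e-05). None of these 3 overlapped between stages. Rps2 and its pseudogene Rps2-ps6 also ranked among the falls, but DESeq2 did not call them (adjusted p = 0.138 and 0.140), their E16.5 libraries lay far apart (142 and 13.46 CPM for Rps2), and near-identical copies share reads, so they are uncertain.

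Genes switched on or off were taken by a rule with no test: at most 3 counts over both libraries of a stage, and at least 0.5 CPM in each library of the other. The rule found 91 genes on at E16.5 and off at E13.5 (0.343% of 26550 genes with a count) and 12 genes off at E16.5 and on at E13.5 (0.0452%). Of the 91, 71 were protein coding, 15 long non-coding, and 18 belonged to a family above. All 75 that could be tested passed the test, as the rule forces. Their levels were low, with a median of 0.828 CPM at E16.5, and 26 genes had exactly 3 counts at E13.5, while 98 genes just outside the rule had 4 to 6.

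Sfrp5, a secreted Wnt inhibitor, led the genes switched on, with 0 and 1 counts at E13.5 and 110 and 76 counts at E16.5, a ratio of 178-fold, 95% interval 31.6 to 7085. Intervals of such ratios are exact, pool the 2 libraries of a stage and cover counting error only. The rule used the same counts and keeps these intervals above 1, so they do not test a change. Kcns1, a silent subunit that modifies Kv2 channels, had 0 and 0 counts at E13.5 and 42 and 26 counts at E16.5, and Kcnj16, an inward rectifier, had 0 and 0 counts at E13.5 and 20 and 31 counts at E16.5. With 3 counts over both E13.5 libraries as the floor these were at least 21.7-fold and at least 16.3-fold higher. Gabrd, the delta subunit of extrasynaptic GABA-A receptors, had 2 and 1 counts at E13.5 and 42 and 31 counts at E16.5 (23.3-fold, 95% interval 7.68 to 116). The zinc carrier Slc39a12 had 1 and 2 counts at E13.5 and 38 and 45 counts at E16.5 (26.5-fold, 95% interval 8.77 to 131), and the imino acid carrier Slc6a20a had 1 and 2 counts at E13.5 and 45 and 34 counts at E16.5 (25.3-fold, 95% interval 8.33 to 125). Crhr2, a receptor of urocortins, had 1 and 2 counts at E13.5 and 30 and 31 counts at E16.5 (19.5-fold, 95% interval 6.37 to 97.2), and Fxyd1, a regulator of the sodium pump, had 0 and 1 counts at E13.5 and 30 and 30 counts at E16.5 (57.6-fold, 95% interval 9.94 to 2311). In each of these genes both E16.5 libraries carried 20 or more counts and neither E13.5 library more than 2. The endothelial marker Ly6c1, the astrocyte marker Gfap and the smooth muscle marker Acta2 were also in the list.

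Further genes switched on, named after their values were seen, included peptide precursors and receptors of other ligands. Tac2, the precursor of neurokinin B, had 2 and 0 counts at E13.5 and 21 and 20 counts at E16.5, and Avp, that of vasopressin, had 0 and 1 counts at E13.5 and 11 and 18 counts at E16.5. The receptor genes Glp1r (2 and 0 against 18 and 15 counts), Brs3 (1 and 0 against 14 and 13), Hcrtr1 (0 and 0 against 9 and 12) and Adra2b (1 and 0 against 16 and 13) each stayed under 20 counts in every library. Transcription factors among them were Dbx2 (1 and 0 against 14 and 11 counts), Tbx4 (0 and 3 against 19 and 14) and Rbpjl (2 and 0 against 9 and 15). Genes of the motile cilium also appeared, with Cfap52 at 0 and 0 against 15 and 15 counts, Wdr63 at 0 and 1 against 27 and 16 and Dnah12 at 0 and 1 against 10 and 18. All of these differences rest on few counts.

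The 12 genes switched off were of fewer kinds. Hbb-bh1, an embryonic beta-like globin, had 49 and 56 counts at E13.5 and 0 and 0 counts at E16.5 (at least 36.5-fold lower). Bsx, a homeobox factor of the hypothalamus and pineal gland, had 16 and 10 counts at E13.5 and 1 and 2 counts at E16.5 (9.03-fold, 95% interval 2.77 to 46.6, E13.5 over E16.5). The double homeobox gene Duxbl1 had 22 and 56 counts at E13.5 and 0 and 1 counts at E16.5 (81.3-fold, 95% interval 14.2 to 3252). The replication-dependent histone H3 genes H3c10 (22 and 16 against 0 and 0 counts) and H3c3 (14 and 11 against 0 and 2) were also in the list. Histone H3 genes and the processed pseudogenes in the list, such as Rpl17-ps5 (90 and 132 against 1 and 0), have near-identical copies, so their counts are uncertain.

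**Figure D4:**
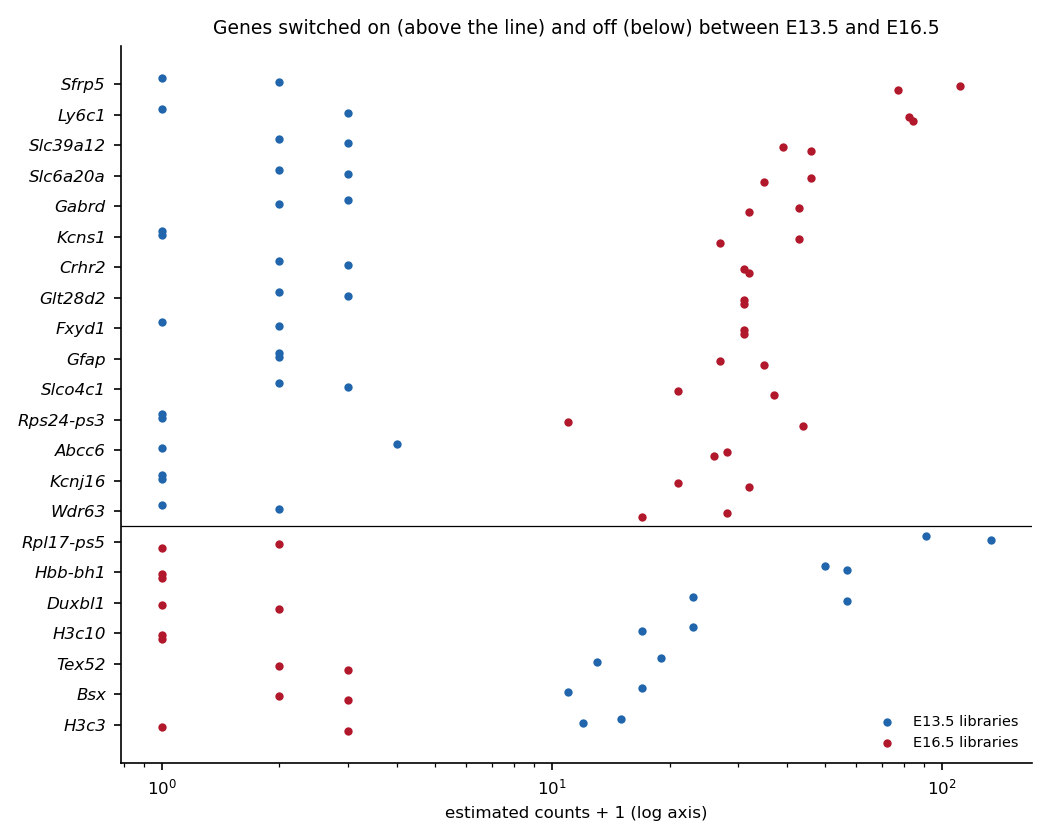
Estimated counts plus 1 (log axis) in the 4 RNA libraries of the 15 named genes switched on, above the line, and the 7 named genes switched off, below it; blue points are E13.5 and red points E16.5 libraries. Blue points lie at 0 to 3 counts in the upper block and red points at 0 to 2 counts in the lower block.

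Chromatin of the same stages was compared at the ends of these genes, taking a gene as marked in a library when a peak lay within 2000 bases of either end of its RefSeq position. Of all tested genes with a position, 1.17% gained H3K9ac, meaning a peak in both E16.5 libraries and in neither E13.5 library. The share was 5.03% of the genes 2-fold higher in RNA and 0.157% of those 2-fold lower. Among the genes switched on it was 14.6% (12 of 82 with a position). Only genes with no E13.5 peak could gain one, and the groups differed in how many had none. Of all tested genes 175 gained H3K9ac and 1364 had no such peak in any library. Among those switched on the counts were 12 and 23. H3K9cr gains stood at 0.940% of all tested genes, 4.05% of those 2-fold higher and 9.76% of those switched on. H3K18la gains stood at 0.960%, 4.20% and 10.98% of the same groups, and H3K18la was lost, by the reverse rule, at 8.79% of the genes 2-fold lower against 2.32% of all. Peaks of H3K9ac lay at the ends of 88.3% and 87.7% of all tested genes at E13.5 and of 89.9% and 89.7% at E16.5. The H3K18la lists differed between E16.5 libraries, with a peak at 74.6% and 80.8% of all tested genes, against 80.1% and 81.8% at E13.5. For genes switched off only 75% had a position, under the 80% needed, so that comparison is void.

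Most genes switched on had no ATAC-seq peak at E13.5. Such peaks lay at the ends of 29.3% and 26.8% of them in the 2 libraries, against 70.2% and 70.4% of all tested genes and 45.5% and 45.0% of those 2-fold higher. Peaks of H3K9ac were already in all 4 libraries at 41.5% of the genes switched on and in none at 28.05%, against 86.8% and 9.16% of all tested genes. The 12 that gained H3K9ac were Gabrd, Gfap, Tac2, Hbq1b, Cmtm5, Clrn1, 1810020O05Rik, Il1rapl2, Serpina3n, Dbx2, Abca6 and Ap1m2. No test was made of these shares. The genes switched on were chosen for at most 3 counts at E13.5, and only 75 of the 91 passed the count filter of the tested genes. All tested genes are therefore not matched to them in level, and no set of equally low genes was compared.

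**Figure D5:**
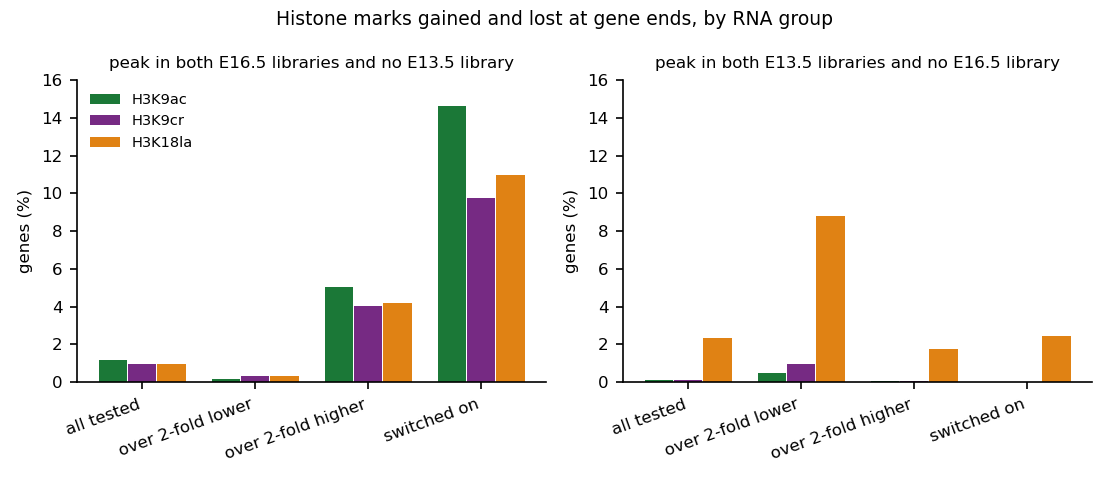
Share of genes (vertical axis, %) that gained (left) or lost (right) each histone mark at their ends between E13.5 and E16.5, for all tested genes, genes 2-fold lower, 2-fold higher and switched on. Gains are highest in the genes switched on, 14.6% for H3K9ac, and H3K18la losses in the genes 2-fold lower, 8.79%. Shares are of all genes of a group with a position, though only genes with no E13.5 peak could gain a mark.

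For 3 of the 12, Serpina3n, Dbx2 and Cmtm5, the gained H3K9ac peak overlapped the promoter window itself, and these windows are shown with CpG dinucleotides, the sites of DNA methylation, in capitals. The RefSeq GRCm38.p6 windows lie on the plus strand at chr12:104406458-104406757 for Serpina3n and chr14:54936220-54936519 for Cmtm5, and on the minus strand at chr15:95654722-95655021 for Dbx2.
Serpina3n: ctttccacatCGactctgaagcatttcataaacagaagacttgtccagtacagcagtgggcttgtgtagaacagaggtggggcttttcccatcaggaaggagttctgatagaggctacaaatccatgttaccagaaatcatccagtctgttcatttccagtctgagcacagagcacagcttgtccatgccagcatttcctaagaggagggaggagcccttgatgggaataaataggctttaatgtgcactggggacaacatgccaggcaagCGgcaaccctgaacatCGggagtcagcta
Dbx2: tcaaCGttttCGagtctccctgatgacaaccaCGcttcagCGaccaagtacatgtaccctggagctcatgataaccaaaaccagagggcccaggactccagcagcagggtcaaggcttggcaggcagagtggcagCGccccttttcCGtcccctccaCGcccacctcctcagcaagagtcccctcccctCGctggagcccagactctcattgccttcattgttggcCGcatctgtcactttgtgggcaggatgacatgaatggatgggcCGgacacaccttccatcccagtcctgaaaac
Cmtm5: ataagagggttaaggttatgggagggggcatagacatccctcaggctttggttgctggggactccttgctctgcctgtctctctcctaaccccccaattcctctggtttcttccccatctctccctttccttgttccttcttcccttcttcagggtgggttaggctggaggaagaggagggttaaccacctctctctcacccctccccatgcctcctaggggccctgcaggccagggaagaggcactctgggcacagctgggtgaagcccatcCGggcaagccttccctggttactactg
The windows held 3, 10 and 1 CpG dinucleotides in that order. Serpina3n, a secreted protease inhibitor of reactive astrocytes, had 0 and 0 counts at E13.5 and 15 and 12 counts at E16.5, and the authors' fold enrichment of the H3K9ac peak over its window was 6.45 and 5.12 in the E16.5 libraries. Over the window of Dbx2, a homeobox gene of the ventral spinal cord and of astrocytes, it was 6.23 and 4.04, and an H3K9cr peak was already called in E13.5 replicate 1. Cmtm5, a membrane protein of oligodendrocytes, had 1 and 0 counts at E13.5 and 17 and 17 counts at E16.5 and peaks of 6.73 and 2.72. No ATAC-seq peak overlapped any of the 3 windows at E13.5.

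Genes that rose were longer than genes that fell, by their medians and with no test. The median genomic span was 32.0 kb for genes 2-fold higher and 17.7 kb for genes 2-fold lower, against 23.5 kb for all tested genes with a RefSeq position. Tested adhesion genes had a median of 54.6 kb, and channels and transporters that rose at least 2-fold one of 57.97 kb, against 36.3 kb for all tested members of that class. Secreted factors that rose at least 2-fold spanned 21.3 kb, against the 22.8 kb of all tested secreted factors. Genes switched on spanned 16.2 kb.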

How the data were processed

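PolyA RNA of the telencephalon was measured in 2 libraries at E13.5 and 2 at E16.5, grouped by their labels. The authors deposited expected counts (estimated read counts per gene, not scaled), for which the submitters' processing notes name Salmon 1.1.0. They were rounded and tested with edgeR 4.0.16 under R 4.3.3 (quasi-likelihood F test, TMM scaling, filterByExpr, 2 residual degrees of freedom), and p-values were adjusted by Benjamini-Hochberg over all 16237 tested genes of 55385 in the table. Levels are CPM, as counts scaled to a common library size with TMM. Near-identical genes share reads in such estimates. Replicate p-values measure the spread between these libraries, for which no label gives the number of embryos.

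The authors' deposited table of log2 fold changes, for which their notes name DESeq2 1.26.0, gave the same sign for 305 of 305 named genes and differed by at most 0.0994. ChIP-seq and ATAC-seq peak lists, 1 per library, used the GRCm38 build, with MACS2 2.2.7.1 and Bowtie2 2.4.1 named in the submitters' notes. Their fold enrichment is a ratio that the authors' caller gave for each peak, per the file headers. A peak overlapping by at least 1 bp counted. Comparison with inputs and read depth behind the lists were not analysed here.

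The plan placed marks and sequence composition at promoters, but promoter windows were found for only 71.6% of the tested genes, under 80%, so a comparison of promoter composition over all genes is void, and marks were read within 2000 bp of either end of the RefSeq GRCm38.p6 gene position, matched by symbol for 91.8% of tested genes.

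The 84 families, the marker lists and the rules were chosen with earlier results of these data known. Named genes are, for each family, the 2 rises and the 2 falls of largest size among members with an adjusted p under 0.05, a 2-fold change, a mean of at least 1 CPM and no overlap between stages. Where fewer passed, the next by the same order with an adjusted p under 0.05 and any fold change were taken. To these come up to 15 genes switched on and 15 switched off with the highest level, and the 10 largest rises and 10 largest falls outside the families with a mean of at least 5 CPM. Marker genes were passed over and the text takes a selection, and some genes are not reported here.

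Alternatives were upper-quartile scaling, DESeq2 1.42.0, no filter on low counts, a replicate block, leaving out each library, and other limits for switched genes. Data were simulated with 15905 genes, of which 200 were changed. In these edgeR recovered 83 of 100 genes changed 2-fold and 96 of 100 changed 4-fold, none with the wrong sign. Unchanged genes made up 25 of its 204 calls (12.3%), more than the adjusted p limit of 0.05 allows. The changed genes were balanced in direction and all above 1 CPM, while 57.6% of genes were called in the real data. The simulation therefore gives no error rate for the real calls or for the low-count switched genes.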

Additional observations from a re-analysis of the deposited data

How the results depend on the processing

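The 4605 genes higher and 4740 lower became 5349 and 3820 with upper-quartile scaling, 3701 and 3919 with DESeq2, 4453 and 4978 without the filter, and 4675 and 4851 with the replicate block. Leaving out each library gave 3730 to 4008 higher and 4204 to 4497 lower, with the lone library of a stage assumed to vary like the other stage's pair. The 2070 genes 2-fold higher and 689 lower became 2321 and 571 with upper-quartile scaling, and 1650 to 1949 and 674 to 721 with a library left out. With the replicate block they were 2072 and 692. The same-numbered libraries' deviations from their stage means correlated at 0.125, which with 2 pairs and no label tying the numbers does not pair them.

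The counts of switched genes moved with the rule. With up to 10 counts allowed in the off stage, 403 were on and 70 off, and with at least 1 CPM in the on stage 20 were on and 6 off. With a library left out, 176 to 325 were on and 40 to 61 off, since the limit of 3 counts then covers a single library or the level is asked of a single library.

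Of 305 named genes, calls were lost by 28 with DESeq2, 13 with upper-quartile scaling, 3 with the block, 2 without the filter and 17 to 28 with a library left out, and none reversed. Upper-quartile scaling moved the median log2 fold change of all tested genes from 0.01 to 0.10. Of 168 family counts of 2-fold changes, 3 to 12 moved by over 1.5 times under a change of method and 14 to 23 with a library left out; of 84 family medians, 7 turned from below to above 0 with upper-quartile scaling, those of the Zbtb (0.03), TALE homeobox (0.04), Klf and Sp (0.01), Ets (0.09), bZIP (0.04), Mef2 and Tcf (0.08), and Fat, Dachsous and Celsr (0.01) families. Genes switched on rest on a median of 0.828 CPM at E16.5, so depth limits their values.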

Other observations

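Genes of the motile cilium were looked at after 4 of them appeared among the genes switched on. Their counts are therefore a description of a list chosen after its values were seen. Of 90 such genes by symbol, 72 were tested, 37 rose and 6 fell, 32 rose at least 2-fold and 1 fell at least 2-fold, with a median log2 fold change of 1.06. The match by symbol also took in genes of other functions, among them Spag5, a spindle protein, which was the member that fell at least 2-fold (log2 fold change -1.53). Foxj1, the factor that drives the motile cilium programme, stood at 9.67 and 10.4 CPM at E13.5 and 10.2 and 11.4 CPM at E16.5 (log2 fold change 0.10 ± 0.14 SE, edgeR adjusted p = 0.566).

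Of 1255 tested long non-coding genes, 227 rose (18.1%) and 108 fell (8.61%), both below the 28.4% and 29.2% of all tested genes. At least 2-fold changes numbered 147 higher (11.7%) and 46 lower (3.67%), near the background of 12.7% and 4.24%. Of 250 tested processed pseudogenes, 15 were higher (6%) and 57 lower (22.8%), both also below the shares of all tested genes. Reads of such copies can come from their parent genes.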
